A study of Capsicum annuum with 5 samples.

Results

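can-miR393 and can-miR394 are the pepper members of 2 microRNA families known in plants to act on genes for F-box proteins. They were taken from an annotation of microRNA hairpins in pepper (Capsicum annuum, inbred line Zunla 1), as every hairpin carrying either name together with the mature sequences assigned to it. This gave 3 of 165 distinct hairpins (miR393a, miR394a and miR394b) and 4 of 314 mature sequences, in 2 of 64 families. The 5 libraries came from mature leaves, fully open flowers, fruits, developing stems and developing roots, with 1 small RNA library per tissue. All plants were of the same line with no treatment recorded. For roots, stems and leaves the series text gives growth at 22 °C and 16 h of light per day, and it gives no such conditions for flowers and fruits. The sample label calls the fruit mature green, whereas the series text describes fruit turning red 30 days after pollination, so its stage is not settled here. Each mature sequence carries a whole-number tag count for every library. Summed over all listed mature sequences these were 1302815 tags in leaf, 2395834 in flower, 1143163 in fruit, 1062218 in stem and 552707 in root. A sequence listed at several hairpins entered these listed totals at each of them. With each sequence counted once per family, the totals were 542531 in leaf, 678695 in flower, 311417 in fruit, 318815 in stem and 231560 in root. These totals cover annotated microRNAs only, so the depth of the libraries themselves is unknown. Since each tissue was sequenced once, differences between tissues have no replicate check and none was tested. All intervals are 95% intervals, and intervals and limits for counts of 0 cover counting error only, and PCR reads are not independent molecules.

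Plant microRNAs are cut by a DICER-LIKE enzyme from a folded precursor, the hairpin. The cut releases a short duplex with a strand from each arm. The guide strand enters an ARGONAUTE protein and pairs with target transcripts, while the passenger strand (the star strand) is usually degraded. F-box proteins are the subunits by which SCF ubiquitin ligases recognise the proteins they mark for degradation. In Arabidopsis the miR393 guide, from the 5′ arm, targets the auxin receptors TIR1 and its AFB relatives and so tunes auxin perception. The 3′ strand of Arabidopsis miR393b has its own described target, the SNARE gene MEMB12, in defence against bacteria. In the same species the miR394 guide, also from the 5′ arm, targets the F-box gene LCR (LEAF CURLING RESPONSIVENESS). This regulation of LCR by miR394 takes part in leaf shape and in maintaining shoot meristem stem cells.

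The mature sequences are shown because the results turn on which arm and which hairpin the tags came from. They are printed 5′ to 3′ as deposited, with T for U, and the seed (bases 2 to 8) is in capitals.
miR393a-5p: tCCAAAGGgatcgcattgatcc
miR393a-3p: aTCATGCGatctcttcggaat
miR394a-5p: tTGGCATTctgtctacctcc
miR394b-5p: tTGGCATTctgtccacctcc
Both miR394 sequences share a seed, and the 2 arms of miR393 have different ones. No other listed sequence in the annotation had any of these 3 seeds. Each of the 4 sequences was listed at a single hairpin, so its counts entered the sums once. How tags that match several places were assigned was not stated. miR393a-5p had 22 nt and miR393a-3p 21 nt. The miR394 sequences had 20 nt, a length found in 11 of the 245 distinct sequences listed (4.49%). miR393a-3p began with A, as did 15.5% of the distinct sequences. The other 3 began with T (U in the RNA), as did 43.7%.

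The 3 hairpins lay on different chromosomes. The build of these positions was not stated in the labels or the file, and the genes around the hairpins were not analysed. miR393a lay on the minus strand of chromosome 3 (56612952 to 56613029) with its 5p sequence at 56613006 to 56613027 and its 3p sequence at 56612952 to 56612972. miR394a lay on the minus strand of chromosome 12 (13121887 to 13121968), with the mature sequence at 13121946 to 13121965. miR394b lay on the plus strand of chromosome 8 (138664606 to 138664685), with the mature sequence at 138664608 to 138664627. The hairpins are printed with the listed mature sequences in capitals, to show which arms were listed.
miR393a: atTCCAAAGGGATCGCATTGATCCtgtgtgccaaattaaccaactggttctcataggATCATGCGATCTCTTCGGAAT
miR394a: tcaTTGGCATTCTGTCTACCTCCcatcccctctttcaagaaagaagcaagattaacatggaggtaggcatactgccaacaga
miR394b: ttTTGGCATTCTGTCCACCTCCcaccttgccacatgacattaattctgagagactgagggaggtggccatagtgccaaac
For miR393a both arms were listed, as for 134 of all 165 hairpins. For both miR394 hairpins the 5′ arm alone was listed, as for 14 hairpins in all (8.48%). The miR394 guide arm therefore holds 100% of the family's tags by the way the annotation lists them, and nothing can be read from it about tags of the 3′ arm.

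miR393a formed the more closed hairpin. In its deposited structure 60 of 78 bases were paired (76.9%), against 50 of 82 in miR394a (61.0%) and 48 of 80 in miR394b (60.0%). The median over the 156 hairpins with a balanced deposited structure was 74.3%. The listed arms of miR393a paired with each other at 18 positions and each overhung the other by 2 nt at its 3′ end, the form that DICER-LIKE cleavage leaves. Refolding gave a minimum free energy of -40.4 kcal/mol for miR393a, -27.4 for miR394a and -30.5 for miR394b. Per nucleotide these were -0.52, -0.33 and -0.38 kcal/mol, against a median of -0.46 over all 165 hairpins. By this measure miR394a ranked 155th and miR394b 135th of 165, counted from the most stable, and miR393a ranked 38th. Refolding returned the deposited structure of miR393a and miR394b exactly, and matched 95.1% of the positions of miR394a.

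**Figure D1:**
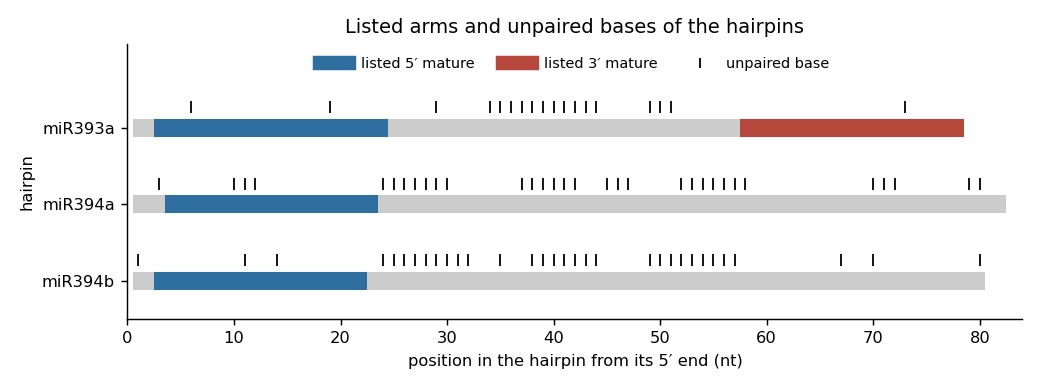
Position along each hairpin in nt from its 5′ end, with the listed 5′ mature sequence in blue, the listed 3′ mature sequence in red and a tick above each base left unpaired in the deposited structure. miR393a has both arms marked and few ticks over them, and the miR394 hairpins have a single marked arm and long unpaired stretches between the arms.

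The 2 miR394 sequences were identical at 19 of 20 positions. The difference was C14T, with the miR394b base first and positions counted from 1 at the 5′ end of the mature sequence. The differing base is in capitals here.
miR394a-5p: ttggcattctgtcTacctcc
miR394b-5p: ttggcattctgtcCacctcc
The stretches opposite these sequences in the 3′ arms differed at 3 of 20 positions.
miR394a-5p opposite stretch: ggaggtaggcatactgccaa
miR394b-5p opposite stretch: ggaggtggccatagtgccaa
Counted from 1 at the 5′ end of each stretch and with the miR394b base first, the differences were G7A, C9G and G14C. Position 7 of the stretch lies opposite position 14 of the mature sequence, and the bases there were paired in both hairpins, so each arm carried the partner of its own base. At the other 2 differences the deposited pairing also differed. Position 12 of the mature sequence was paired in miR394a and unpaired in miR394b, and positions 7 and 8 were paired in miR394b and unpaired in miR394a. The whole hairpins, arms included, were less alike, with 65.1% identity over an alignment of 86 columns.

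miR393 tags were concentrated in the leaf library. The family had 1586 tags in leaf, against 14 in root, 20 in fruit, 11 in stem and 24 in flower. Leaf stood far above the others, which lay close to each other. Per 1000000 listed tags of each library (normalised tags below) it had 1217 in leaf (counting interval 1158 to 1279), against 25.3 in root (13.8 to 42.5), 17.5 in fruit (10.7 to 27.02), 10.4 in stem (5.17 to 18.5) and 10.02 in flower (6.42 to 14.9). No interval overlapped that of leaf. The normalised level in leaf was 48.1 times that in root (28.6 to 88.1), 69.6 times that in fruit (44.9 to 114), 118 times that in stem (65.5 to 236) and 122 times that in flower (81.4 to 190). Below leaf, the ratio of each tissue to the next in order had an interval that included 1, so neighbours in this order could not be told apart at this depth. With listed totals no interval was computed for tissues further apart, such as root and stem or root and flower. By tags, miR393 ranked 17th of the 46 families with tags in leaf, and between 30th and 41st in the other libraries. In whole organs, fewer cells with a microRNA and less of it per cell cannot be told apart.

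The leaf tags were all from the 3′ arm. miR393a-3p had 1586 tags in leaf, 14 in root, 16 in fruit, 11 in stem and 23 in flower. miR393a-5p, the sequence that in Arabidopsis guides cleavage of the auxin receptor transcripts, had 0 tags in leaf, root and stem, 1 in flower and 4 in fruit. The 3′ arm thus led in every library while the guide arm was at or near 0 throughout. Taking 3 tags of the total as the limit that a count of 0 allows, the guide share could be up to 0.189% of the 1586 tags in leaf, 21.4% of the 14 in root and 27.3% of the 11 in stem. The 3′ share was 80.0% in fruit (16 of 20 tags, Clopper-Pearson interval 56.3 to 94.3) and 95.8% in flower (23 of 24, 78.9 to 99.9). Over all libraries it was 99.7% (1650 of 1655, 99.3 to 99.9), and without leaf 92.8% (64 of 69, 83.9 to 97.6). The large difference between leaf and the other tissues is therefore one of the 3′ strand, and the 5 guide tags give no order of tissues.

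**Figure D2:**
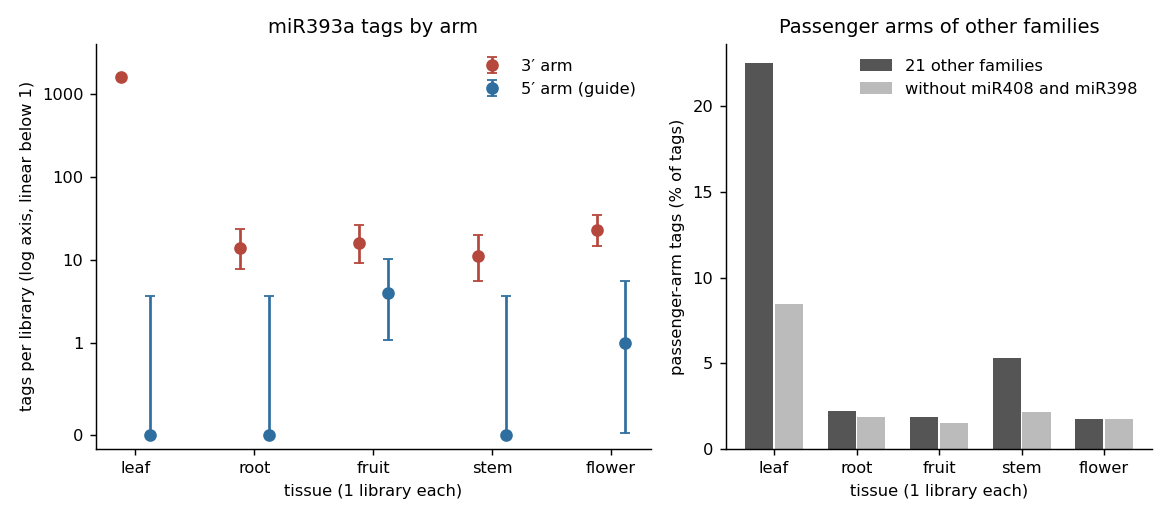
Left, tags of each miR393a arm per library (log axis, linear below 1), with 95% Poisson counting intervals as bars. The 3′ arm reaches 1586 tags in leaf and 11 to 23 elsewhere, and the 5′ arm does not exceed 4. Right, the share of tags from passenger arms in each library, in percent, over 21 other families with a known guide arm (dark) and without miR408 and miR398 (light), which is highest in leaf both ways.

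Passenger arms of other families were also more frequent in the leaf library. Over the 21 other families whose guide arm is known in plants, with each sequence counted once, passenger arms made up 22.5% of the tags in leaf, against 2.18% in root, 1.83% in fruit, 5.30% in stem and 1.77% in flower. miR408 and miR398 supplied much of this, and without them the shares were 8.47% in leaf, 1.89% in root, 1.52% in fruit, 2.16% in stem and 1.73% in flower. The passenger share was higher in leaf than in every other library in 11 of the 21 families, among them miR396, miR482 and miR397, and in 1 more, miR403, leaf and flower were level at 100%. The part of the leaf library as a whole in the miR393 result was not tested. Across families, a passenger share above 50% of the pooled tags was not rare: it was found in 31.8% of the 22 families with a known guide arm and a listed passenger sequence. miR393 ranked second among the 22, and was 1 of 6 in which the passenger arm had more tags than the guide in all 5 libraries.

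miR394 was highest in flower and was spread over 4 tissues. The family had 228 tags in flower, against 55 in leaf, 41 in fruit, 27 in stem and 0 in root. In normalised tags this was 95.2 in flower (83.2 to 108), against 42.2 in leaf (31.8 to 55.0), 35.9 in fruit (25.7 to 48.7) and 25.4 in stem (16.8 to 37.0). The interval of flower lay above those of leaf, fruit and stem, which overlapped. The normalised level in flower was 2.25 times that in leaf (1.67 to 3.08), 2.65 times that in fruit (1.90 to 3.80) and 3.74 times that in stem (2.51 to 5.81). The intervals of the ratio of leaf to fruit (0.77 to 1.81) and of fruit to stem (0.85 to 2.39) included 1. For leaf to stem no interval was computed with listed totals, so a tie of these 2 tissues was not shown. With median-of-ratios scaling the order of leaf and fruit turned, with fruit 1.85 times leaf (1.21 to 2.83). By tags the family ranked 22nd of 45 in flower and between 26th and 35th in leaf, fruit and stem.

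In root miR394 was listed at 0. Of the 57 families with at least 10 tags over the libraries, 26.3% were listed at 0 in root. Root had the smallest listed total, and hairpin totals of 1 to 4 tags were nearly absent from the annotation (1 of 825 hairpin and library values), so a few tags may have gone unlisted. No fold is given against root, and a lower level there than in stem was not shown.

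Nearly all miR394 tags were listed under miR394a. Its 5p sequence had 216 tags in flower, 55 in leaf, 41 in fruit and 27 in stem. miR394b had 12 tags in flower and was listed at 0 in the other 4 libraries. In flower, where both were listed, miR394a held 94.7% of the tags (216 of 228, Clopper-Pearson interval 91.0 to 97.3). The mature sequences of both hairpins differ at a single base, and how tags were assigned between them was not stated. As hairpin totals of 1 to 4 tags were nearly never listed, an absence of miR394b outside flower was not shown. The order of tissues for the family is therefore that of miR394a, whose flower level alone was 2.14 times that of leaf (1.58 to 2.93).

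**Figure D3:**
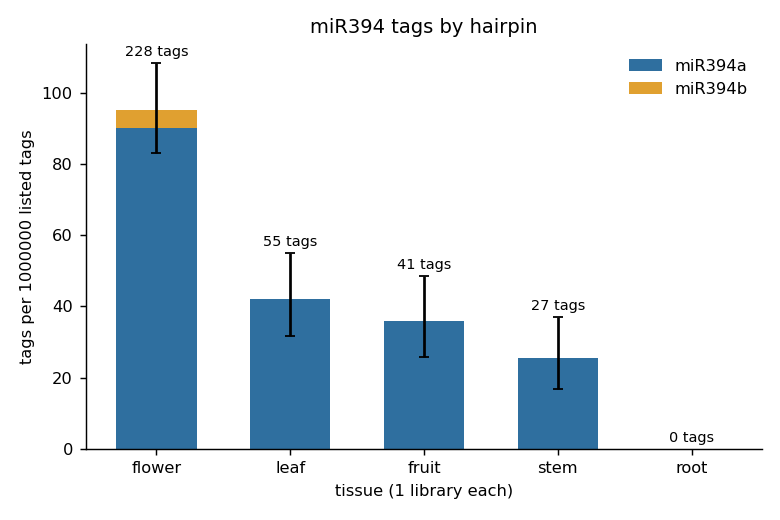
Tags per 1000000 listed tags for miR394, stacked by hairpin (miR394a blue, miR394b orange), with 95% Poisson counting intervals of the family total and the tag number above each bar. Flower is highest with 228 tags, miR394b adds 12 tags there only, and root is listed at 0.

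A change of scaling multiplies the ratio of any given pair of tissues by the same factor in both families. In the 31 families detected in every library, the median deviation of a family from its own mean over the libraries was -1.36 log2 units in flower and 0.63 in leaf, with 0.46 in root, 0.30 in stem and -0.50 in fruit. Relative to that median family (median-of-ratios scaling), miR394 was 8.95 times higher in flower than in leaf (6.64 to 12.2) and 4.83 times higher than in fruit (3.45 to 6.91). With totals that leave out miR166, the most abundant family, its lead over fruit was 1.43-fold (1.02 to 2.05). miR394 had its highest value in flower under all 4 scalings, and the next tissue was leaf or fruit. miR393 was highest in leaf under all 4, by 30.6-fold to 48.1-fold over the next tissue, which was root, flower or fruit. Its ratios to single tissues moved further. Relative to the median family, leaf was 30.6 times flower (20.5 to 47.9), 31.9 times fruit (20.6 to 52.4), 42.7 times root (25.4 to 78.3) and 93.3 times stem (52.03 to 187), and with totals without miR166 it was 65.2 times stem (36.3 to 131) and 38.6 times fruit (24.9 to 63.4).

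The ratio of the families within a library needs no scaling. miR393 had 28.8 tags per miR394 tag in leaf (22.04 to 38.5), against 0.488 in fruit (0.271 to 0.852), 0.407 in stem (0.182 to 0.849) and 0.105 in flower (0.0661 to 0.161). Leaf was thus the only library with miR394 tags in which miR393 had more tags. The ratio in leaf was 274 times that in flower (162 to 469), 70.8 times that in stem (31.7 to 165) and 59.1 times that in fruit (31.2 to 113). The 2 families are sequences of different composition, and how well each was captured in the libraries was not measured.

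**Figure D4:**
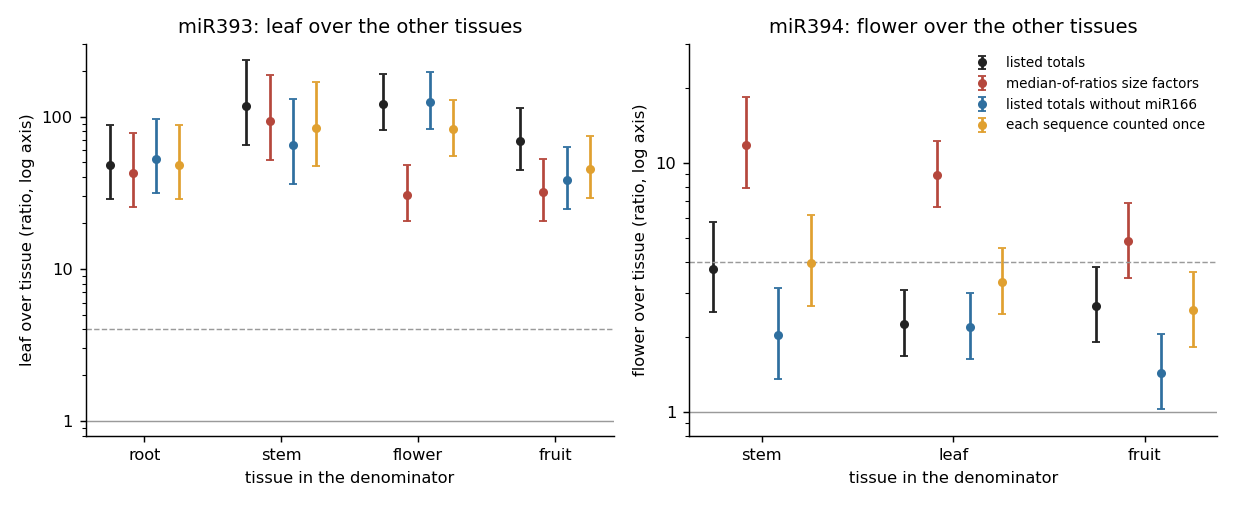
Ratios of leaf to each other tissue for miR393 (left) and of flower to each other tissue for miR394 (right) under 4 scalings, on log axes, with 95% counting intervals. The solid line marks a ratio of 1 and the dashed line 4. The miR393 ratios are all 30.6 or more, and those of miR394 range from 1.43 to 11.8.

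Among the families with tags in a second tissue, the lead of miR393 was among the largest and that of miR394 was ordinary. A level in the highest tissue at least 4 times that in every other was found in 19 of the 57 families (33.3%), and in leaf in 3 of them (5.26%), which were miR393, miR408 and the candidate miRC22. Over all libraries 99.98% of the miR408 tags were from the passenger arm. miRC22 passed with 10 tags in leaf and the other libraries listed at 0, and with such values taken as 4 tags 2 families passed in leaf, miR393 and miR408. For 47 families the next tissue had tags, and the median ratio of highest to next was 1.87. miR393 ranked second of these, behind miR477 at 70.1 in root, and miR394 ranked 20th. In 10 more families the next tissue was listed at 0, which gives no ratio. With those families placed first, miR393 was 12th and miR394 30th of the 57. miR394 passed the 4-fold criterion in flower under median-of-ratios scaling only, where 10.5% of the families did so in flower, against 5.26% with listed totals. Of the 57 families 24.6% were highest in leaf and 12.3% in flower. Some tags in every library were found for 54.4%, miR393 among them.

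**Figure D5:**
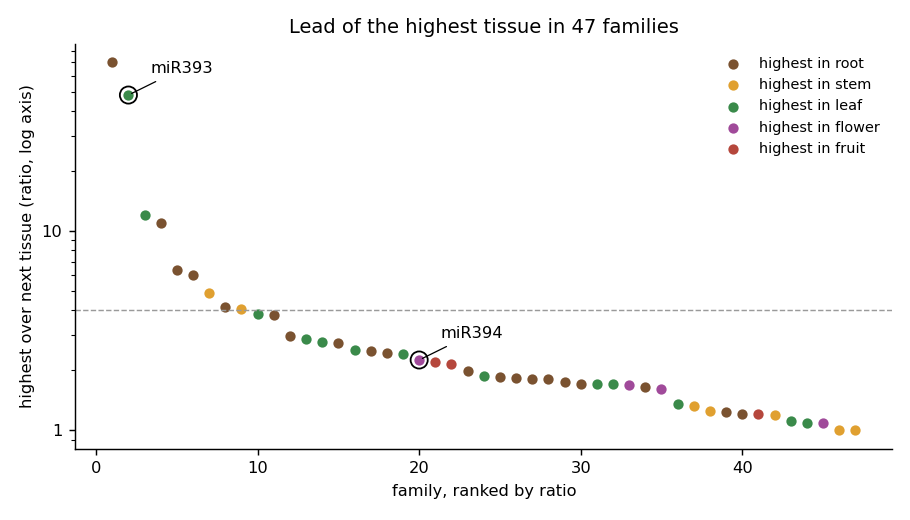
Ratio of the highest to the next tissue (log axis, normalised tags) for the 47 families with tags in a second tissue, ranked, coloured by the highest tissue, with the dashed line at 4. miR393 stands second at 48.1 and miR394 in the middle at 2.25.

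The families of the auxin pathway were highest in different tissues. The list held miR160 and miR167, which target auxin response factors, miR390, which triggers tasiRNAs against such factors, miR164, which targets NAC factors in auxin and organ boundary programmes, and miR393. Of these 5, 2 passed the 4-fold criterion (miR393 in leaf and miR164 in stem), beside 33.3% of all families, and 1 was highest in leaf (miR393), beside 24.6% of all. These shares are too close to set the list apart from other families, and the median lead was 2.16-fold, beside 1.87-fold over all families with a ratio. These levels sum both arms, and as in miR393 most miR160 tags were from the passenger arm (96.5%), with 1179 passenger and 44 guide tags in flower and 392 and 4 in leaf. With both arms miR160 was highest in flower with 510 normalised tags, against 304 in leaf. miR167 was highest in fruit with 140879 normalised tags, against 65224 in flower. miR390 had 1835 normalised tags in stem and 1833 in leaf, but median-of-ratios scaling put it highest in flower. miR164 had 10261 in stem, against 2106 in fruit, and its lead of 4.87-fold was 2.81-fold under median-of-ratios scaling. The leaf position of miR393 and the absence of leaf from first place in the other 4 held under each of the 4 scalings.

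Likeness of tissue patterns was measured as the share of a family's normalised tags that would have to move to another tissue to give the pattern of the other family (total variation distance), where 0 means the same shares and 1 means no tissue in common. The median over the 1596 pairs of the 57 families was 0.604. miR393 had 95.1% of its normalised tags in leaf. The candidate miRC22, with 10 tags, all in leaf, was at a distance of 0.0494 from it. Next came miR408, a regulator of copper proteins, with 91.6% in leaf (0.0685), and miR5301 with 71.2% in leaf (0.243). As in miR393, the leaf tags of miR408 were nearly all from the passenger arm, with 48088 passenger and 2 guide tags. miR394 had 47.9% in flower, 21.2% in leaf, 18.1% in fruit and 12.8% in stem. The families nearest to it were miR160, with 43.8% in flower (0.169), miR156, a regulator of SPL factors, with 44.1% in flower (0.273), and miR169, a regulator of NF-YA factors, with 26.5% in flower (0.311). miR393 and miR394 themselves were 0.758 apart.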

How the data were processed

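The authors deposited a GFF version 3 annotation written with a plant setting of MIREAP, per the file headers, with whole-number tag counts for 5 libraries on each mature line. No scaling of the deposited counts is recorded. The sources used here state no build, aligner, trimming, library totals or rule for tags that match several places. RNA was extracted with Trizol and sequenced on an Illumina HiSeq2000 from small RNA kit libraries, per the labels' protocols, whose text names root samples for all tissues. Tissues were taken from each sample's own label.

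Precursors repeated with identical content (11 of 490 lines) were kept once. Mature positions were computed from the place of the sequence in the hairpin, since 176 of 314 deposited mature positions matched it. Those of miR393a-5p and both miR394 sequences matched and that of miR393a-3p did not.

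Counts were summed by family and divided by listed totals. Of 3 other scalings, one used median-of-ratios factors (31 families), one left miR166 out of the totals, and one took each sequence once per family, at its largest count. Ratios have exact binomial-split intervals, shares Clopper-Pearson intervals and levels Poisson intervals. The ratio of miR393 to miR394 was compared between libraries with exact conditional intervals of the odds ratio. Families with at least 10 tags were compared. Guide arms of 23 families came from textbook knowledge. Hairpins were refolded with RNAfold 2.7.2 and miR394 hairpins aligned with Biopython 1.88. Other calculations used Python 3.11.15, NumPy 2.4.6, SciPy 1.17.1 and Matplotlib 3.10.9.

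Named were all members, the auxin list, and for each family the 3 families nearest in pattern and the 3 nearest in total tags. Families beside the passenger shares and miR477 were chosen after their values were seen. Members and lists were chosen with earlier results of these data known. No target transcripts were analysed.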

Additional observations from a re-analysis of the deposited data

How the results depend on the processing

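The lead of miR393 in leaf over the next tissue, which changed between root, flower and fruit, stayed within its counting interval under the 3 other scalings and from the 3′ arm alone. Its ratio to flower alone ranged from 30.6 to 125 over the 4 scalings. From the guide arm alone it has no value, because that arm is at 0 in leaf. The lead of miR394 in flower was 4.83-fold with median-of-ratios factors and 1.43-fold with totals without miR166, against 2.25-fold with listed totals; it has no value from the 3′ arm, which is not listed, or from miR394b alone. The pooled 3′ share of miR393, 99.7%, was 100% in root, stem and leaf alone, 95.8% in flower alone and 80.0% in fruit alone. The number of families passing the 4-fold criterion was between 13 and 21 over its 6 alternatives, against 19 of 57. Both extremes came from other sets of families, 13 of 47 with at least 50 tags and 21 of 59 with any tag. Of the 6 families named as nearest in pattern, 5 were also named with median-of-ratios factors. Arms taken from place in the hairpin gave the same shares. The tag numbers outside leaf (11 to 24 for miR393) limit the order of tissues. No paired analysis was possible because each tissue had 1 library, for which reason no replicate could be left out.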

Other observations

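The families nearest to miR393 in total tags (1655) had other patterns. miR395, a regulator of sulfate assimilation, had 1585 tags, all in flower. With each sequence counted once miR395 had 318 tags, so it was near miR393 only where repeats at several hairpins were summed. The candidate miRC8 had 1917 tags in all 5 libraries, between 221 and 553 each. miR160 had 1932 tags, of which 1223 were in flower. Nearest to miR394 in total tags (351) were the candidate miRC11 with 427, all in stem, the candidate miRC7 with 261, highest in fruit, and miR399, a regulator of phosphate balance, with 484, also highest in fruit after division by listed totals.

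None of the 3 hairpins had another listed hairpin close by. The nearest to miR394b was the candidate miRC8, 103679 bp away on chromosome 8. The nearest to miR394a was miR5300, 2727666 bp away on chromosome 12, and the nearest to miR393a was the candidate miRC16, 4144966 bp away on chromosome 3.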
